A study of Mus musculus with 24 samples.

Results

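The genes described here encode the proteins of the cytosolic ribosome in BMDMs, macrophages that were cultured from mouse bone marrow. They were chosen by symbol and by level, as the rows of the normalised expression table whose symbols follow the ribosomal protein pattern (Rpl or Rps with a number, and Rplp0, Rplp1, Rplp2 and Rpsa, without the S6 kinases) and whose log2 level was at least 8 in every one of the 24 libraries. Of 24273 rows, 87 had such a symbol and 81 reached that level, 48 of the large and 33 of the small subunit, on 19 chromosomes. The annotation gives 80 of them as protein-coding and Rps12l1 as a processed pseudogene, and all 81 passed the filter on low values. The deposited log2 levels themselves were used in that choice, so their abundance is a description and not a finding. The lowest values just inside the threshold were 8.20 for Rpl27, 8.24 for Rpl12 and 8.54 for Rpl5. Just outside it, Rps3a2 stood at 7.54 in its lowest library, and Rps4l (lowest value 5.31), Rpl6l (4.86), Rps3a3 (4.10), Rpl39l (2.35) and Rpl3l (0.04) lay further below.

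Ribosomal proteins assemble with ribosomal RNA into a large and a small subunit, and a cell needs them in roughly equal number. Their mRNAs are among the most abundant and stable in a growing cell, and many start with a cytosine followed by a run of pyrimidines, the 5′ terminal oligopyrimidine (TOP) tract, through which mTOR and LARP1 control their translation. In macrophages lipopolysaccharide (LPS) activates TLR4, which raises transcription of immediate early genes such as Fos within the first hour and changes protein synthesis.

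The libraries were RNA sequencing of BMDMs from C57BL/6 mice in a 2 by 4 design. The control was labelled LysM, with the Cre recombinase driven from the lysozyme M (Lyz2) locus, which is active in myeloid cells, and is called LysM-Cre here. The other genotype was labelled FosKO, in which the same Cre acts on floxed Fos. Both were cultured without LPS (0 h) or with 100 ng/ml LPS for 0.5, 1 or 2 h, with 3 libraries in each of the 8 groups. For the control, the series names only the Cre, and a floxed Fos allele on 1 chromosome is added in the paper's results. The age of the mice is not stated, and the study's methods call the libraries biological replicates, but neither they nor the labels say whether each came from a separate mouse, so the p-values measure the spread between these libraries.

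All 8 macrophage genes stood at 9.07 (Mertk) or higher in all 24 libraries, with Adgre1, Csf1r, Cd68 and Itgam at 14.16 or higher. Below 5 in every library were 5 of 5 T and NK cell, 5 of 5 fibroblast, 4 of 5 B cell, 4 of 7 neutrophil and 3 of 5 dendritic cell genes and the single erythroid and mast cell genes tabled, and the others reached at most 6.03 (Zbtb46). The targeted gene went against its label in level at 0, 1 and 2 h, and with it at 0.5 h. Fos was 11.11 ± 0.05, 13.52 ± 0.08, 11.15 ± 0.17 and 9.52 ± 0.10 in LysM-Cre over the 4 times (mean ± SD, n = 3 throughout). In libraries labelled FosKO it was 12.60 ± 0.17, 12.75 ± 0.09, 12.78 ± 0.10 and 12.80 ± 0.13. A gene-level value does not show whether the deleted part of Fos was transcribed, so this neither checks nor contradicts the deletion, and directions below compare libraries by their labels. In 5 libraries the 18S ribosomal RNA row Rn18s-rs5 lay between 16.65 and 17.00, and in the other 19 between 18.57 and 19.39. The low 5 were LysM-Cre 0.5 h replicate 3, LysM-Cre 1 h replicates 2 and 3, FosKO 0.5 h replicate 1 and FosKO 1 h replicate 1.

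The sequences at the mRNA start are shown because the TOP tract is the feature that ribosomal protein mRNAs are known to share. The first 20 bases of an annotated GENCODE vM21 transcript (GRCm38, 5′ to 3′) are given for some of the genes that the results below turn on. A C followed by at least 4 pyrimidines at the very first base is in capitals. Where any transcript of a gene began with this tract, such a transcript is shown, which need not be the principal one.

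Rps3 (chromosome 7, minus strand): CCTTTCCTTTCagcggcgcg
Rpl29 (chromosome 9, plus strand): CTCTTCCggtctccggcgct
Rps27 (chromosome 3, minus strand): CCTTTCCggcggtgacgacc
Rpl36 (chromosome 17, plus strand): CTTCCTgtcccggccgccat
Rpl22 (chromosome 4, plus strand): ctgcctcctctgccgccatg
Rpl22l1 (chromosome 3, plus strand): gttgcgtatttcgcacgctc
Rpl7l1 (chromosome 17, minus strand): cgcagtagctgaagcaccgg

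By this strict reading 22 of the 80 members with a coding transcript (27.5%) had at least 1 transcript that began with the tract, against 690 of 11896 tested genes (5.80%). Counting the principal transcript alone, it was 9 of 80 (11.2%) against 261 (2.19%). Annotated starts can miss the true first base, so a gene without the tract here may still carry it. Both paralogues shown, Rpl22l1 and Rpl7l1, lacked it at the annotated start, as did Rpl22 and most members. Rplp0, Rpl5 and Rpl24, which are described below but not printed, lacked it too, so the printed genes overstate its share.

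RefSeq promoter windows (GRCm38.p6, 300 bases that span the start and lie mostly before it) matched 60 of the 81 genes. The ETS letters CCGGAAG stood on either strand in 25 of the 60 (41.7%), against 9.93% of 27025 genes with a window. These 27025 include genes that were not tested here, whereas the members were chosen by level, so the shares are not matched for level. The SP1 letters GGGCGG were in 38 (63.3%, against 38.2%), the YY1 letters AAGATGGC in 6 (10.0%, against 3.19%), the CRE letters TGACGTCA in 5 (8.33%, against 2.03%), the E-box CACGTG in 6 (10.0%, against 8.09%) and TATAAA in 7 (11.7%, against 15.7%). The AP-1 letters TGANTCA, the sequence that Fos and Jun proteins bind, were in 2 of the 60 (3.33%, against 8.97%), Rpl22 and Rpl9. They are shown because Fos is the targeted gene, with the 7 AP-1 letters in capitals.

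Rpl22 promoter (chr4:152325648-152325670, plus strand): agtctcccTGAGTCAttcgcagt
Rpl9 promoter (chr5:65391532-65391554, minus strand): tcgtcgctTGAGTCAtgacgcga

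A match describes letters in a window and not a bound site. Counted from the start used for the RefSeq windows, the Rpl22 match is centred at -67 bases and the Rpl9 match at -112 bases. For both genes this start differs from the GENCODE gene start.

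At their mean over the 24 libraries the 81 genes ranged from 8.93 to 13.99, with a median of 12.18. The highest were Rplp0, the backbone of the P-stalk that recruits elongation factors (13.99), Rpl4 (13.85) and Rps4x (13.73). The lowest were Rpl5, which binds 5S ribosomal RNA with Rpl11 (8.93), Rpl12 at the base of the stalk (9.01) and the paralogue Rpl22l1 (9.28). These are values per gene and not per length. Values per kilobase depend on the annotated transcript length (2045 bases for Rpl5, 833 for Rpl11), and which transcripts these cells made was not tested. Per kilobase of the principal transcript, Rplp0 stood at 13.55, its stalk partner Rplp1 at 13.84 and Rplp2 at 11.75 (log2), while Rpl11 stood at 12.07 against 7.89 for Rpl5, its partner in the 5S particle. Other well-studied members lay between these, at per-kilobase levels of 12.57 for Rpsa, which is also known as a laminin receptor, 12.24 for Rps6, the substrate of the S6 kinases, 12.79 for Rpl13a, known for a role in inflammatory translational control, 12.63 for Rps19, mutated in Diamond-Blackfan anaemia, 12.71 for Rps27a, made as a ubiquitin fusion, 12.04 for Rpl38, 11.55 for Rpl10 and 13.65 for Rpl41, the smallest of the proteins.

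Most members were measured tightly. The pooled SD within groups had a median of 0.06 on the log2 scale and was 0.05 or less for 34 of 81 genes, with 0.02 for Rpl26, Rpl4, Rpl7 and Rpl32. It exceeded 0.2 for 9 genes and reached 0.99 for Rpl27, an interface protein of the large subunit.

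Of these 9 genes, 8 moved with the 18S content of the library. The exception was Rpl5, whose low minus high 18S difference ran from -0.30 to 0.07 over the 4 groups that hold both kinds of library, and whose widest group, FosKO at 0 h (8.61 to 9.72), held only high 18S libraries. Rpl27 read 10.87, 10.94 and 8.55 in the LysM-Cre libraries after 0.5 h of LPS and 10.49, 8.48 and 8.37 after 1 h. In FosKO it read 8.20, 10.81 and 10.73 after 0.5 h and 8.37, 11.09 and 10.89 after 1 h. Each value below 9 came from 1 of the 5 libraries with low 18S content. Within the 4 groups that hold both kinds of library, low minus high 18S averaged -2.40 for Rpl27, -0.79 for Rps12, -0.76 for Rpl10, -0.70 for Rpl12, -0.68 for Rpl10a, -0.56 for Rpl31 and -0.54 for Rpl27a, and +0.76 for Rps27, +0.39 for Rpl3 and +0.32 for Rps12l1. The other 71 genes differed by 0.3 or less in size and 55 of 81 by 0.1 or less, and the median over the 81 was 0.01.

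Some rows annotated as copies of these genes moved the other way. The row Rpl27-ps3 stood at 9.41 to 9.57 in the low 18S libraries and 5.96 to 9.04 in the others, whereas Rps27rt, a copy of Rps27, stood at 9.12 to 10.37 against 10.82 to 11.45, and Rpl3-ps1 at 10.22 to 10.88 against 11.70 to 12.03. When each member was summed on the linear scale with the rows named as its copies, the range over the 24 libraries shrank from 1.31 to 0.27 for Rps12, from 1.02 to 0.35 for Rpl10, from 1.09 to 0.27 for Rpl10a, from 0.89 to 0.21 for Rpl31, from 1.13 to 0.31 for Rps27 and from 0.76 to 0.36 for Rpl3. It shrank from 3.02 to 1.39 for Rpl27 and hardly moved for Rpl12 (1.32 both ways) and Rpl27a (0.77 both ways). Of the 81 genes 55 had such copy rows. The single values of the 10 genes named for the 18S split are uncertain where near-identical copies can take each other's reads, and what set the split was not tested.

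**Figure D1:**
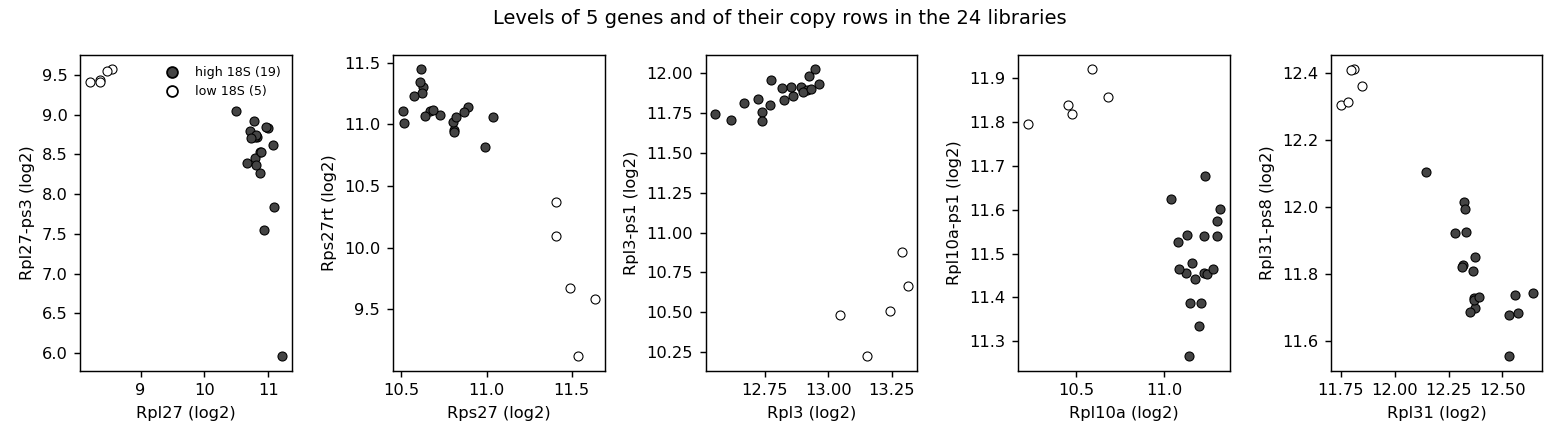
Log2 level of 5 ribosomal protein genes (horizontal axes) and of a row annotated as a copy of each (vertical axes), 1 point for each of 24 libraries. Open points are the 5 libraries with low 18S content and filled points the other 19. The open points stand apart in every panel, with Rpl27, Rpl10a and Rpl31 lower and their copies higher, and Rps27 and Rpl3 higher and their copies lower.

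The level of the family as a whole was compared between genotypes and times. Averaged over the 81 genes, the deposited log2 level was 12.03 ± 0.01, 11.99 ± 0.03, 12.06 ± 0.01 and 12.16 ± 0.01 in LysM-Cre at 0, 0.5, 1 and 2 h (mean ± SD, n = 3). It was 11.96 ± 0.05, 11.98 ± 0.05, 12.05 ± 0.04 and 12.17 ± 0.04 in libraries labelled FosKO. Every library at 2 h lay above every library at 0 h. The genotypes overlapped at 0.5, 1 and 2 h but not at 0 h, where FosKO replicate 3 was the lowest library of all at 11.91. The order of the times depended on the scaling, and after quantile normalisation the same mean went from 12.20 to 12.06 in LysM-Cre and from 12.06 to 11.94 in FosKO between 0 and 2 h. Centred on other genes of mean level 8 or more, it went from 12.10 to 12.15 and from 11.99 to 12.09. In bulk RNA a change in the number of cells and a change in RNA per cell cannot be told apart.

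**Figure D2:**
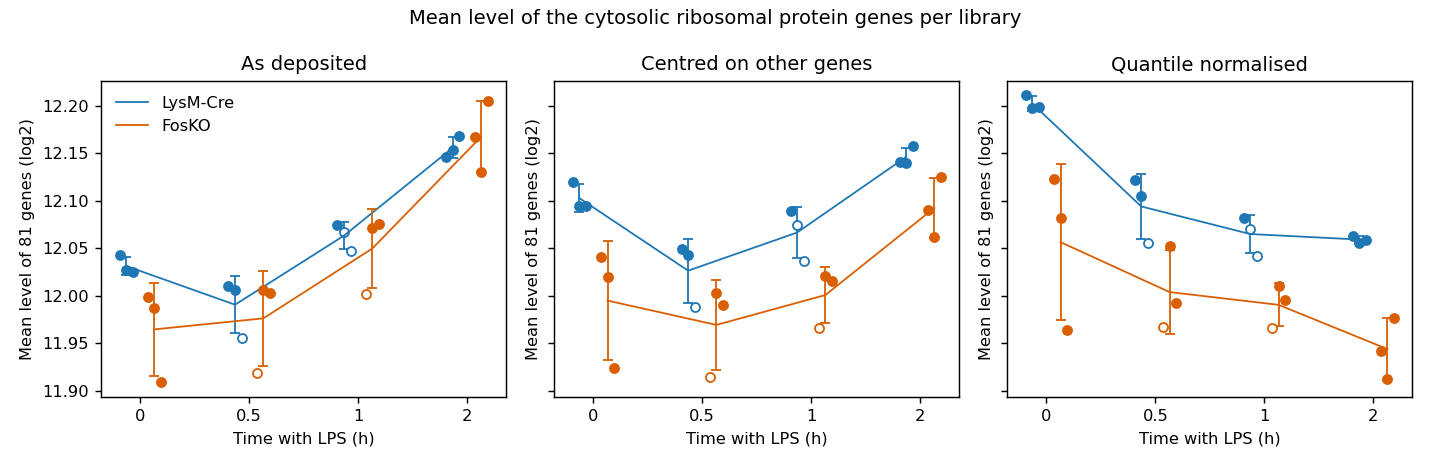
Mean log2 level of the 81 ribosomal protein genes in each library against time with LPS (categories, in h), by genotype, under 3 scalings. Points are libraries, open for low 18S content, and lines and bars are group means and SD (n = 3). Within each genotype the 2 h group is the highest as deposited and the lowest after quantile normalisation, where LysM-Cre at 1 and 2 h lie close together (12.065 and 12.059), and FosKO means lie below LysM-Cre at every time in the latter.

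As a share of the summed linear values of all rows other than 18S, the 81 genes took 2.12% ± 0.01 in LysM-Cre at 0 h and 1.99% ± 0.002 at 2 h. In libraries labelled FosKO they took 1.91% ± 0.11 at 0 h and 1.78% ± 0.03 at 2 h. The share was lower in every FosKO library than in every LysM-Cre library at the same time. Between 0 and 2 h it was lower in all LysM-Cre libraries, and the FosKO ranges overlapped (1.79% to 2.01% and 1.75% to 1.81%), while the mean log2 level was higher at 2 h in both. The deposited values are on a normalised log2 scale, so these shares describe that scale and not molecules.

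The effect of the genotype at each time asks whether macrophages labelled FosKO carry different amounts of ribosomal protein mRNA. Without LPS, 3 of 81 genes were higher and 30 lower in FosKO (limma, Benjamini-Hochberg adjusted p under 0.05), beside 35.4% of all 13901 genes called (15.9% lower). In both directions together 40.7% of members were called, while the 30 lower ones stand beside 15.9% of all genes and 17.8% of other genes of mean level 8 or more. The members had a median difference of -0.09 against 0.00 over all genes. By subunit, 19 of 33 small subunit genes were lower and none higher, and 11 of 48 large subunit genes were lower and 3 higher. The lower genes included Rpl13 (11.16 ± 0.23 against 11.45 ± 0.02), Rps13 (9.93 ± 0.16 against 10.18 ± 0.05) and Rpl36 (10.65 ± 0.19 against 10.89 ± 0.03). Without FosKO 0 h replicate 3, the number called fell from 33 to 15, and the differences went from -0.29 to -0.16 for Rpl13 and from -0.24 to -0.15 for Rpl36, which were no longer called (limma adjusted p = 0.074 and 0.090). For Rps13 it went from -0.24 to -0.16 and was still called (adjusted p = 0.024).

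After 0.5 h of LPS, 3 genes were higher and 5 lower, beside a background of 40.9% (19.7% lower). After 1 h, 2 were higher and 21 lower, beside 33.9% (15.9% lower), and after 2 h the numbers were 3 and 6, beside 44.6% (20.3% lower). The median differences were -0.03, -0.07 and -0.01. Centred on the median of all tested genes, the balance at 2 h turned to 6 higher and 2 lower, with a median of 0.02. Of the 81 members 9.88%, 28.4% and 11.1% were called at these times on the deposited scale, but quantile normalisation gave 58, 35, 51 and 52 lower and 2 higher genes at the 4 times, so the number of lower genes depends on the scaling. With only high 18S libraries the count at 1 h was 5 higher and 8 lower, but LysM-Cre then had 1 library at 1 h, whose spread was taken from the other groups. The lowest members at 1 h were Rpl3 at -0.32 (limma adjusted p = 0.055, and -0.19 with adjusted p = 2.9e-05 when summed with its copies), Rpl36 at -0.28 (adjusted p = 0.0039) and Rps27a at -0.24 (adjusted p = 0.0076). The highest after Rpl29 were Rpl27 at 1.00 (SE 0.73, adjusted p = 0.32) and Rpl12 at 0.52 (SE 0.24, adjusted p = 0.11), and Rpl27, Rpl12 and Rpl3 are among the 10 genes that moved with 18S content. Within the high and the low 18S libraries at 1 h the difference was -0.21 and -0.15 for Rpl3, -0.21 and -0.15 for Rps27a and -0.24 and -0.24 for Rpl36. Without FosKO 1 h replicate 2 the number called was 14, and without replicate 1 it was 33.

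**Figure D3:**
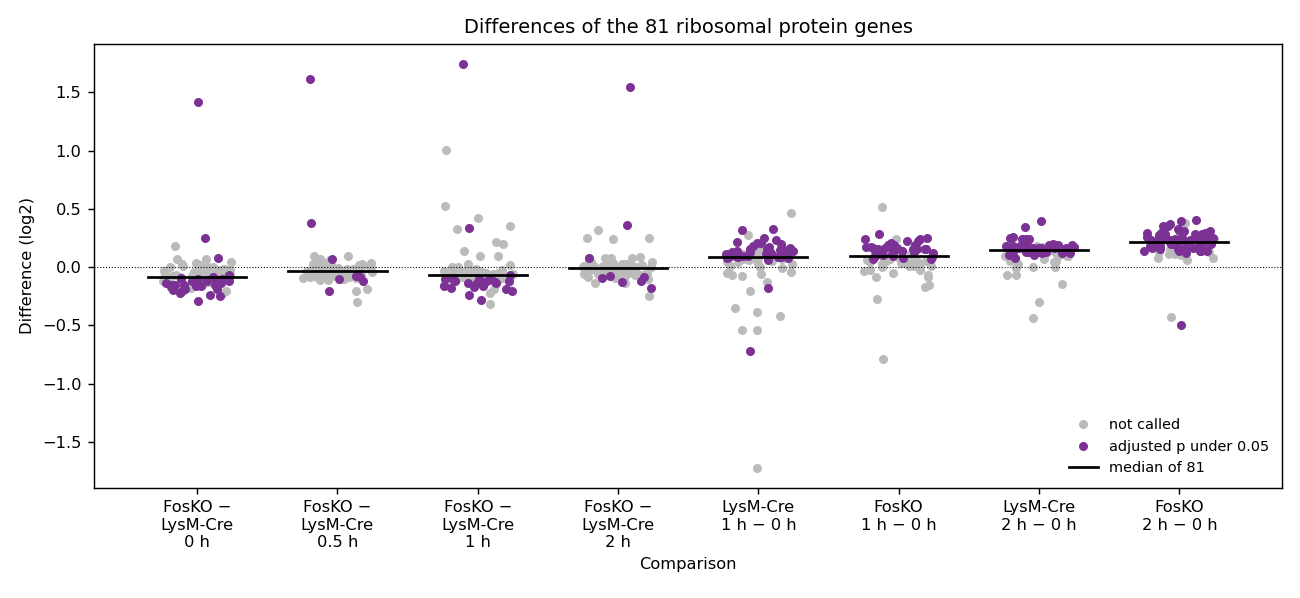
Log2 difference of each of the 81 ribosomal protein genes in 8 comparisons, FosKO minus LysM-Cre at 4 times and 1 h or 2 h LPS minus 0 h in each genotype, on the deposited scale. Purple points passed an adjusted p of 0.05 and black lines are medians. Rpl29 stands alone at 1.42 to 1.74 in the genotype comparisons, and the medians of the 2 h LPS comparisons are 0.14 and 0.22.

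The gene that stood out was Rpl29, a large subunit protein that also binds heparin (chromosome 9, 106429454 to 106431568, GRCm38, plus strand). Without LPS the LysM-Cre libraries read 10.62, 10.59 and 10.62 and those labelled FosKO 12.05, 12.03 and 11.99. After 0.5 h they read 10.63, 10.49 and 10.26 against 12.05, 12.09 and 12.09, and after 1 h 10.60, 10.35 and 10.33 against 12.17 in all 3. After 2 h the LysM-Cre libraries read 10.73, 10.73 and 10.74 and the FosKO ones 12.26, 12.26 and 12.30. Every FosKO library lay more than 1 log2 unit above every LysM-Cre library. The fold differences were 2.67, 3.06, 3.34 and 2.91 at 0, 0.5, 1 and 2 h (log2 1.42, 1.62, 1.74 and 1.54, SE 0.07, adjusted p from 6.4e-14 to 2.8e-12 by limma). Within the high 18S libraries they were 1.53 at 0.5 h and 1.57 at 1 h, and within the low ones 1.79 and 1.83 (log2). Adding its copy rows left the differences at 1.42 to 1.74, but these rows added almost nothing to its level. The range over the 24 libraries was 2.0476 without them and 2.0470 with them, so this sum cannot show whether reads were shared.

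Of the 20 tested genes within 500 kb of Rpl29, 9, 12, 7 and 15 were called at the 4 times, beside 35.4%, 40.9%, 33.9% and 44.6% of all tested genes, with differences from -0.47 to 1.17, and Parp3 was the only one to reach 1. The neighbours called at all 4 times were each higher in FosKO. They were Alas1 (0.72 to 0.92), Poc1a (0.25 to 0.32), Abhd14a (0.47 to 0.70), Abhd14b (0.54 to 0.80), Pcbp4 (0.88 to 0.95) and Parp3 (0.75 to 1.17). Neighbours called at fewer times went both ways, such as Tlr9 (0.44) and Twf2 (-0.18) at 0 h. What raised Rpl29 and these neighbours was not tested. The response of Rpl29 to LPS differed between genotypes by 0.12 at 2 h (SE 0.09, adjusted p = 0.43), and the genotype gap at 0 h was 1.42.

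Rpl22 and its paralogue Rpl22l1, which can take its place in the ribosome, went in opposite directions. Rpl22l1 read 9.01, 9.13 and 9.07 in LysM-Cre and 9.39, 9.58 and 8.98 in FosKO at 0 h. At 2 h it read 9.27, 9.20 and 9.28 against 9.65, 9.62 and 9.56. The genotypes overlapped at 0 h, through FosKO replicate 3, and at no later time. The differences were 0.25, 0.38, 0.33 and 0.36 (SE 0.09, adjusted p = 0.038, 0.0020, 0.0069 and 0.0028), by limma. The 0 h call was lost under 4 of the alternatives and without any of 4 of the 6 libraries at 0 h, LysM-Cre replicates 1 and 3 and FosKO replicates 1 and 2 (adjusted p from 0.081 to 0.29).

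Rpl22 read 11.64, 11.65 and 11.66 in LysM-Cre and 11.50, 11.45 and 11.39 in FosKO at 0 h, and 11.69, 11.71 and 11.71 against 11.58, 11.54 and 11.62 at 2 h. All FosKO libraries lay below all LysM-Cre libraries at each of the 4 times. It was lower by -0.20, -0.12, -0.18 and -0.12 (SE 0.03, adjusted p = 3.7e-06, 0.0011, 1.3e-05 and 6.7e-04). Relative to the median of the 81 genes, which removes any shift common to a library, Rpl22 was still lower (-0.09, -0.07, -0.14 and -0.10, adjusted p = 0.0098, 0.045, 3.9e-04 and 0.0052) and Rpl22l1 higher (0.36, 0.43, 0.38 and 0.38, adjusted p from 3.9e-04 to 0.0016) at all 4 times. Rpl9, the other gene with AP-1 letters in its promoter window, differed by -0.22, -0.01, -0.19 and -0.06 (SE 0.07, limma adjusted p = 0.027, 0.90, 0.051 and 0.58). Its genotypes overlapped at 0.5 and 2 h. At 0 h Rpl9 read 12.32, 12.30 and 11.87 in FosKO against 12.33, 12.40 and 12.41 in LysM-Cre. The 0 h difference thus rested largely on FosKO replicate 3.

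**Figure D4:**
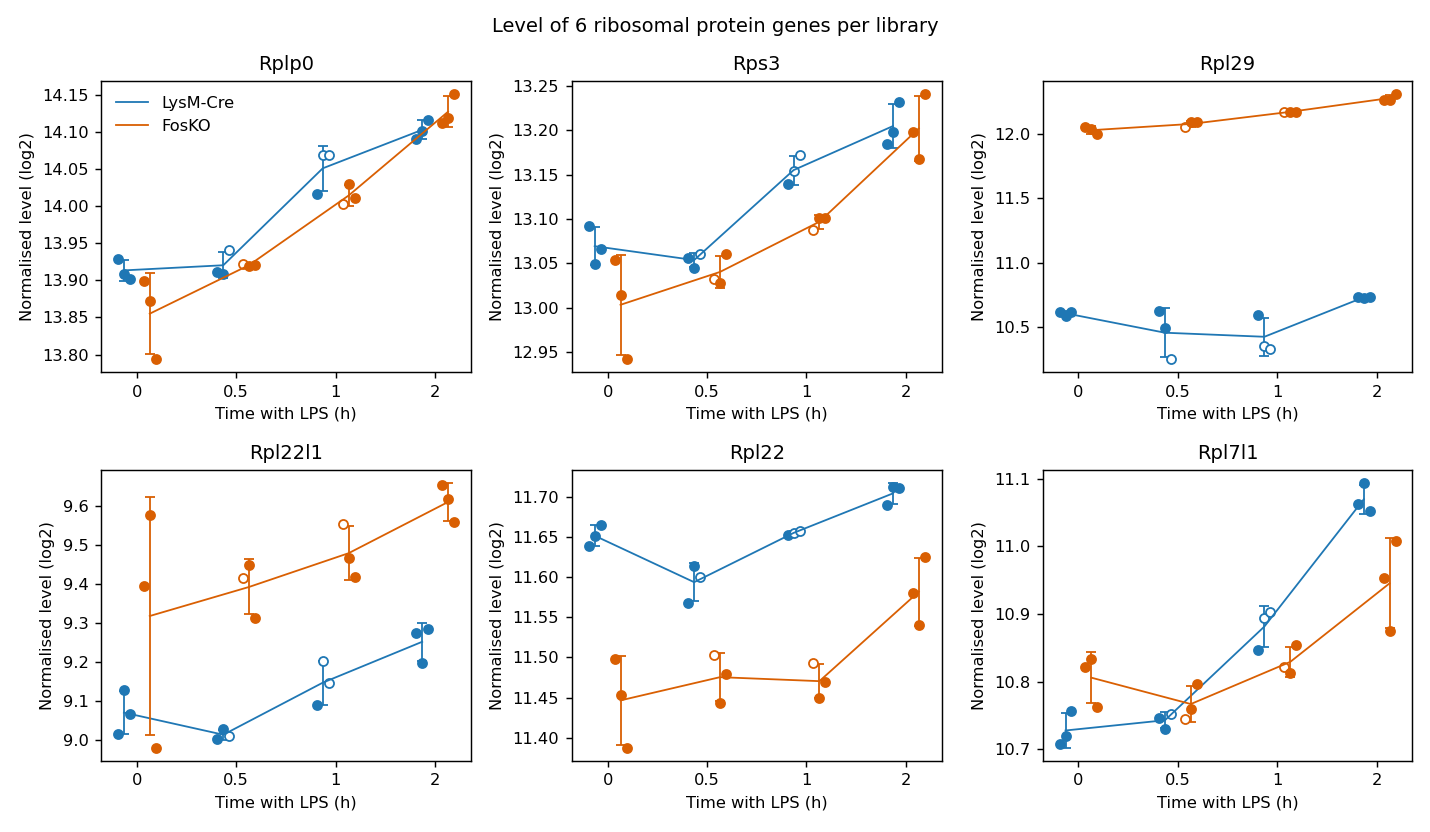
Log2 level of Rplp0, Rps3, Rpl29, Rpl22l1, Rpl22 and Rpl7l1 in each library against time with LPS (categories, in h), by genotype. Points are libraries, open for low 18S content, and lines and bars are group means and SD (n = 3), with a separate vertical scale for each gene. Rpl29 is between 11.99 and 12.30 in all FosKO libraries and at most 10.74 in LysM-Cre.

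Measured against the family median, 15 members departed from it between the genotypes at 0 h (13 higher, 2 lower, beside a background of 45.7%), 10 at 0.5 h (9 higher, 1 lower, beside 39.9%), 12 at 1 h (2 higher, 10 lower, beside 32.8%) and 6 at 2 h (4 higher, 2 lower, beside 42.1%). The members called at all 4 times in the same direction were Rpl29, Rpl22l1 and Rpl22. Rps24, a small subunit protein, was relatively higher at 0, 0.5 and 2 h (0.13, 0.12 and 0.10, adjusted p = 0.0016, 0.0035 and 0.0096).

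Rplp0 and Rps3, both often used as reference genes, differed little between genotypes on the deposited scale, though Rplp0 stood at -0.17 at 0.5 h and -0.21 at 2 h after quantile normalisation. Rplp0 read 13.93, 13.91 and 13.90 in LysM-Cre and 13.90, 13.87 and 13.79 in FosKO at 0 h, and 14.09, 14.10 and 14.12 against 14.11, 14.12 and 14.15 at 2 h. Its differences were -0.06, 0.00, -0.04 and 0.02 over the 4 times (limma adjusted p from 0.073 to 0.995). Rps3, a protein of the mRNA entry site, differed by -0.07, -0.01, -0.06 and 0.00, with a limma adjusted p of 0.048 at 0 h. There it read 13.05, 13.01 and 12.94 in FosKO against 13.09, 13.05 and 13.07 in LysM-Cre. FosKO replicate 3 carried much of that difference. Rpl5 ranged from 8.54 to 9.72 over all libraries and differed by 0.18, -0.30, 0.10 and -0.25 with an SE of 0.17, none of which was called.

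The response to LPS was then examined in each genotype. At 0.5 h no member was called in LysM-Cre by limma (4 had an unadjusted p under 0.05, and quantile normalisation called 9, all lower), beside 7.24% of all genes, and 3 higher and 1 lower were called in FosKO, beside 5.92%, which became none higher and 6 lower after quantile normalisation. At 1 h, 37 genes were higher and 2 lower in LysM-Cre, beside 35.8% (19.2% higher), and 38 were higher and none lower in FosKO, beside 32.6% (17.6% higher), on the deposited scale. After quantile normalisation this turned to 1 higher and 37 lower, and 2 higher and 22 lower. Centred on other genes of mean level 8 or more, it was 7 higher and 5 lower in LysM-Cre (median 0.02). In FosKO that centring gave 3 higher and 0 lower (median 0.01). With only high 18S libraries the LysM-Cre count at 1 h was 4 higher and 1 lower, from the 1 library left of 3 and assuming that it varies like the other groups. The 2 lower genes in LysM-Cre were Rpl12 and Rpl29, named here after their values were seen, and with 18S content as a term the count was 27 higher and none lower. In Rpl29 the low values were those of the 2 low 18S libraries (10.35 and 10.33), and the high 18S library read 10.60.

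At 2 h, 53 members were higher and none lower in LysM-Cre, beside 60.8% of all genes called (30.6% higher). In FosKO 65 were higher and 1 lower, beside 62.1% (32.6% higher). The medians were 0.14 and 0.22 on the deposited log2 scale, against -0.02 and 0.00 over all tested genes, but quantile normalisation gave 1 higher and 45 lower, and 2 higher and 40 lower, with medians of -0.15 and -0.14. Among other genes of mean level 8 or more, 42.0% and 44.9% were called higher. By subunit, 26 of 33 small and 27 of 48 large subunit genes were higher in LysM-Cre, and 28 of 33 and 37 of 48 in FosKO, as deposited. Centring on other genes of mean level 8 or more gave 21 higher and none lower in LysM-Cre and 44 higher and 1 lower in FosKO (medians 0.06 and 0.11), and centring on all tested genes gave 65 and none, and 69 and 1. At 2 h the direction of the family with LPS was therefore the same under both centrings and turned under quantile normalisation. The values below are given as deposited and relative to the family. Relative to the family median, 4 members were higher and 4 lower at 2 h in LysM-Cre, beside a background of 67.7%, and 5 higher and 19 lower in FosKO, beside 73.2%.

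Rpl24, a bridge protein added late in the making of the large subunit, had the highest difference in LysM-Cre. It read 11.53, 11.56 and 11.54 at 0 h and 11.88, 11.96 and 11.97 at 2 h in LysM-Cre, and 11.55, 11.55 and 11.52 against 11.94, 11.91 and 11.96 in FosKO. The differences were 0.39 and 0.40 (SE 0.06, adjusted p = 3.5e-06 and 3.0e-06), and 0.23 and 0.14 above the family (adjusted p = 0.0010 and 0.026). After quantile normalisation they were 0.14 and 0.09 and were not called.

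Rps20, a small subunit protein, read 11.65, 11.72 and 11.45 at 0 h and 11.99 to 12.04 at 2 h in FosKO, a difference of 0.40 (SE 0.05, adjusted p = 1.4e-07), and 0.15 above the family (adjusted p = 0.0021). In LysM-Cre its difference was 0.24. Rpl19, also of the large subunit, stood at 13.25 ± 0.01 and 13.50 ± 0.01 in LysM-Cre at 0 and 2 h, a difference of 0.25 as deposited (adjusted p = 4.3e-08), 0.09 above the family, and -0.08 after quantile normalisation. Rplp0 differed by 0.19 and 0.27 between 2 h and 0 h in LysM-Cre and FosKO, and Rps3 by 0.14 and 0.20, and both genes turned to between -0.20 and -0.22 after quantile normalisation.

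At the other end Rpl12 differed by -0.44 and -0.43 between 2 h and 0 h (adjusted p = 0.13 in both) and Rps12 by -0.30 and 0.06, and neither was called. No low 18S library is in these groups, but such libraries widen the pooled spread, and with 18S content as a term Rpl12 was lower in both genotypes (limma adjusted p = 0.0045 and 0.0049). Its libraries read 9.29 to 9.44 at 0 h and 8.89 to 8.94 at 2 h in LysM-Cre, and 9.37 to 9.48 and 8.78 to 9.13 in FosKO. Rps27 was among the lowest in LysM-Cre (-0.14) and among the highest in FosKO (0.38), and was called in neither. Summed with their copies, which for Rps12 (mean level 9.71) include the more abundant member Rps12l1 (11.96), Rps12 was higher by 0.14 and 0.16 and Rps27 by 0.13 and 0.19 (adjusted p from 2.4e-05 to 0.0036). Rpl5 was called lower in FosKO after 2 h of LPS (-0.49, SE 0.17, limma adjusted p = 0.017), but its libraries overlapped. Untreated FosKO replicates 1, 2 and 3 spread widely (8.61, 9.30, 9.72), whereas those given LPS for 2 h read 8.89, 8.56 and 8.70. Untreated replicate 1 thus lay below treated replicates 1 and 3. The size of this Rpl5 difference therefore depended on single untreated libraries, with replicate 3 the highest. Rpl22 lagged the family with LPS in both genotypes, by -0.11 and -0.12 (adjusted p = 0.0012 and 4.9e-04).

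The difference between the genotypes in their response to LPS was tested as an interaction. By limma no member was called at 0.5 h, beside 0.115% of all genes called, and none at 1 h, beside 1.22%. Before adjustment, 9 and 4 members had a p under 0.05. At 2 h, 2 members were called, 1 higher and 1 lower, beside 15.0% of all genes. The lower one is described here. Rpl7l1, a paralogue of Rpl7 that works in the making of the large subunit, read 10.71, 10.72 and 10.76 at 0 h and 11.06, 11.09 and 11.05 at 2 h in LysM-Cre, and 10.82, 10.83 and 10.76 against 10.95, 10.88 and 11.01 in FosKO. It rose by 0.34 in LysM-Cre and 0.14 in FosKO (SE 0.03, adjusted p = 1.9e-09 and 2.9e-04), and the difference of the responses was -0.20 (SE 0.04, adjusted p = 0.0017) as deposited and -0.29 relative to the family (adjusted p = 1.4e-05), where it was the only member called, beside a background of 17.8%. The rise in FosKO became -0.08 after quantile normalisation.

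Leaving out single libraries moved the number of interaction calls at 2 h between 1 and 11, the highest without FosKO 0 h replicate 1, and Rpl7l1 was called each time (-0.23 to -0.17). The median difference of the responses over the 81 genes at 2 h was 0.07, against 0.02 over all genes.

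Other lists of the translation machinery, chosen with earlier results of these data known, are set beside the ribosomal proteins. At 2 h, 60.8% of all tested genes were called with LPS in LysM-Cre and 62.1% in FosKO (30.6% and 32.6% higher). Of 44 tested ribosome biogenesis genes, which process ribosomal RNA and assemble subunits, 39 were higher and 1 lower at 2 h in LysM-Cre (median 0.41), and 23 higher and 5 lower in FosKO (median 0.10, and 0.00 when centred on other genes of mean level 8 or more). In the interaction at 2 h 32 were lower and none higher (median -0.27), beside the 15.0% of all genes called, and quantile normalisation gave the same counts (median -0.28). FosKO was called below LysM-Cre for 34 of 44 at 2 h and above for 2, beside 44.6% of all genes called (20.3% lower). Rrs1, a regulator of ribosome synthesis, rose by 1.73 in LysM-Cre and 1.42 in FosKO (SE 0.05). Nop2, which methylates 28S ribosomal RNA, was 9.44 ± 0.04 and 9.97 ± 0.01 at 0 and 2 h in LysM-Cre but 9.42 ± 0.04 and 9.38 ± 0.05 in FosKO. Its difference of responses was -0.57 (SE 0.05, adjusted p = 4.4e-07), and those of Gnl3, a nucleolar GTPase, and Tsr1, needed for small subunit maturation, were -0.67 and -0.53 (adjusted p = 7.5e-07 and 1.8e-05).

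Among 30 translation factors and other TOP mRNAs, 26 were higher and 2 lower at 2 h in each genotype (medians 0.21 and 0.21), beside 60.8% and 62.1% of all genes called (30.6% and 32.6% higher), with 1 higher and 1 lower in the interaction, but quantile normalisation gave 5 higher and 13 lower in LysM-Cre and 2 higher and 17 lower in FosKO. Eif3e, a subunit of the initiation factor eIF3, differed by 0.32 and 0.33 as deposited. Of 77 mitochondrial ribosomal protein genes, 27 were higher and 14 lower in LysM-Cre at 2 h, and 18 higher and 22 lower in FosKO, with 5 lower in the interaction. These numbers stand beside 60.8%, 62.1% and 15.0% of all genes called, and centring on other genes of mean level 8 or more turned the LPS counts to 14 higher and 23 lower, and 5 higher and 38 lower. Ribosomal protein genes with other symbols gave 3 of 8 higher in LysM-Cre and 5 of 8 in FosKO as deposited, against 2 higher and 2 lower, and 2 higher and 1 lower, after quantile normalisation. Among them was Gnb2l1, which encodes the small subunit scaffold RACK1 (0.18 and 0.30). Of 23 genes of mTOR and translation control, 8 were higher and 12 lower at 2 h in LysM-Cre and 5 higher and 10 lower in FosKO, beside the same 60.8% and 62.1%. Larp1, which binds the TOP tract, rose by 0.98 and 0.97, and Sesn1, an inhibitor of mTORC1, fell by 1.64 and 1.67 on the log2 scale. Host genes of small nucleolar RNAs are given only by those with the largest t at 2 h. With LPS these were lower in FosKO (Snhg17 -0.64, Snhg12 -0.60, Snhg1 -0.36, Gas5 -0.22). In LysM-Cre they went both ways (Snhg4 -0.40, Snhg1 -0.22, Snhg6 0.19, Snhg5 0.31). FosKO lay below LysM-Cre at 2 h for Snhg17 (-0.71), Snhg5 (-0.52), Snhg12 (-0.51) and Snhg1 (-0.23). Myc, a factor known to drive ribosome synthesis, went both ways with time. It rose to 10.87 and 11.15 at 0.5 and 1 h in LysM-Cre from 9.88 at 0 h, and to 10.32 and 10.27 in FosKO from 9.65 (limma adjusted p from 3.5e-12 to 5.1e-07). At 2 h it was below 0 h in both, at 8.67 and 8.35, having fallen by 1.22 and 1.29 on the log2 scale. Myc was listed with other transcription factors of ribosomal protein genes, also given only by those with the largest t at 2 h. With LPS these went both ways in LysM-Cre and FosKO (Sp3 -0.86 and -0.996, Gabpa 0.46 and 0.44, Gabpb1 0.75 and 0.70). At 2 h FosKO lay below LysM-Cre for Mxi1 (-0.54) and Myc (-0.32) and above it for Max (0.34).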

How the data were processed

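RNA from 24 BMDM cultures was sequenced by the authors, who deposited 1 table of normalised log2 values per gene (24273 rows). The submitters' processing notes name STAR 2.5.2a, RSEM 1.2.31, DESeq2 1.16.1 and GRCm38. Values reach below 0 and the exact log2 transformation is not given in the sources used here. Read totals are not part of the table, so depth per library is unknown and no counting interval is given.

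Genes with a linear value (2 to the power of the deposited value) of at least 5 in at least 3 libraries were tested (13901). All 24 libraries were fitted with limma 3.58.1 (R 4.3.3) with 1 mean for each of 8 groups and a variance trend (16 residual degrees of freedom), in 13 comparisons, each with Benjamini-Hochberg adjustment over all tested genes. The fit was tested on simulated data. Within-group correlations were 0.995 to 0.998, and no libraries were identical.

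The members and lists were chosen with earlier results of these data known. Named genes were the 3 given with the group, 12 well-studied members, paralogues, the 3 highest and 3 lowest differences and levels, and genes at the threshold. Differences relative to the median of the 81 genes, and sums with rows named as pseudogene or retrogene copies, were added after seeing the data. The single values of 1 member are not reported here, and it is kept in all counts. Alternatives were other scalings, filters, a pseudocount of 1, no trend, fewer groups, blocks, 18S content and leaving out each library. Annotation came from GENCODE vM21, promoters from RefSeq GRCm38.p6.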

Additional observations from a re-analysis of the deposited data

Results flagged for a closer look

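A difference between the genotypes in the 2 h LPS response, by the interaction test, marked Rpl7l1 for a closer look. It responded less in FosKO (-0.20 on the log2 scale, adjusted p = 0.0017), and the call held with a value of -0.29 relative to the family. Groups of 3 libraries are too small for a test of single outlying libraries.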

How the results depend on the processing

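Rpl29 and Rpl22 kept their direction and their calls at all 4 times under the scalings tried. Numbers of members called, higher and lower together, follow the order 0, 0.5, 1 and 2 h for genotype. Quantile normalisation gave 60, 37, 53 and 54 for genotype, 9, 38 and 46 for LPS at 0.5, 1 and 2 h in LysM-Cre, 6, 24 and 42 in FosKO and 1 in the 2 h interaction. It turned medians with LPS to -0.10 and -0.15 in LysM-Cre and -0.026, -0.071 and -0.14 in FosKO. With it the 2 h LPS differences became -0.076 for Rpl19 in LysM-Cre, -0.20 and -0.14 for Rpl22 in LysM-Cre and FosKO, -0.078 for Rpl7l1 in FosKO, -0.20 in both for Rplp0 and -0.22 in both for Rps3, and the genotype difference of Rplp0 was -0.17 at 0.5 h and -0.21 at 2 h. Centring on other genes of mean level 8 or more gave 50, 24, 55 and 31 for genotype, 2, 12 and 21 in LysM-Cre, 2 and 3 at 0.5 and 1 h in FosKO and 1 in the 2 h interaction. Centring on all tested genes gave 8 (6 higher and 2 lower) at 2 h for genotype and 6 in that interaction. No filter and no trend each gave 2 for FosKO at 0.5 h and 1 in the 2 h interaction. Fitting only the groups compared gave 15 at 0 h and 17 at 2 h for genotype, 0 and 10 for FosKO at 0.5 and 1 h, and 4 in the 2 h interaction. An 18S term gave 14 at 2 h for genotype and 5 in the 2 h interaction. High 18S libraries alone gave 13 at 1 h for genotype, 5 for LysM-Cre at 1 h, 0 for FosKO at 0.5 h and 1 in the 1 h interaction. Both following alternatives were chosen after seeing the data. Centring on the median of the 81 genes gave 15, 10, 12 and 6 for genotype, 19 and 8 at 1 and 2 h in LysM-Cre, 1, 9 and 24 in FosKO, and 1 and 1 in the 1 and 2 h interactions. Summing with copies gave 13 at 0.5 h for genotype, and 2 h LPS differences of 0.14 for Rps12 and 0.13 for Rps27 in LysM-Cre. Leaving out single libraries gave 15 to 40, 5 to 8, 14 to 33 and 5 to 10 for genotype, 0 to 1, 25 to 44 and 47 to 50 in LysM-Cre, 0 to 13, 27 to 45 and 61 to 66 in FosKO, and 0, 0 to 1 and 1 to 11 in the interactions. The cause of these changes was not tested. Replicate numbers did not meet the rule for pairing, which needs every same-number pair over 0.1. Across genotypes 6 of 48 did so (median -0.02), and within a genotype 12 of 36 (median 0.06, highest 0.71), against 4 of 72 with different numbers (median -0.03). With the replicate block the counts were 33, 8, 25 and 9 for genotype, 0, 40 and 52 in LysM-Cre, 4, 40 and 66 in FosKO and 0, 0 and 2 in the interactions, and a block within genotype gave 1 in the 1 h interaction. Depth is unknown, so precision rests on 3 libraries per group.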
